A study of Mus musculus with 2 samples.

Results

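Stretches of the mouse liver genome that were neither methylated nor unmethylated, but read near the middle of the scale in both of a pair of sequencing libraries, are described here. They are fixed windows of 1000 bp on the 19 autosomes in which at least 10 cytosines of CpG sites had 10 or more reads in each library, and in which the mean of those cytosines' methylation levels was 35 to 65% in the control library and also in the fasted library. Of 31314 windows with enough cytosines, 1194 met this rule, or 3.81%. They are called intermediate windows below. The levels of both libraries chose them, so the levels themselves are given as a description and support nothing.

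The study asked how an overnight fast alters DNA methylation in liver. Its control mice were untreated CD-1 animals with free access to standard chow, and its fasted mice were CD-1 animals deprived of food for 12 hr. Both were 12 weeks old, and CD-1 is an outbred stock, so individuals differ genetically from each other and from the reference genome. Whole liver DNA was assayed by reduced representation bisulfite sequencing, in which enzymes cut the genome at short CpG-containing sites and bisulfite turns unmethylated cytosines into a base read as thymine. There was 1 library per group, and the labels do not say how many mice went into each. No spread between animals could therefore be estimated, and every test below compares 2 libraries, not the 2 conditions.

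In mammals most CpG cytosines are methylated, while those in CpG-rich gene starts are mostly unmethylated, so intermediate values are the exception. Imprinted genes are the textbook case of them. An imprinting control region is methylated on the chromosome copy inherited from 1 parent and unmethylated on the other, in nearly every cell, and this mark sets which copy of the neighbouring genes is expressed. Reads drawn from both copies then give an intermediate level at each cytosine of the region. A window mean in the middle can also be the average of fully methylated and unmethylated cytosines lying side by side, for example where the edge of an unmethylated gene start falls inside the window. In whole liver, a mark on 1 copy in all cells and a mark on both copies in some of the cells cannot be told apart from the level alone.

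Promoters show what such a stretch looks like base by base. The 3 sequences below come from RefSeq on GRCm38.p6, the same assembly as mm10, and each is the 250 bases before an annotated start, 5′ to 3′ on the strand of the gene. Capitals mark the CpG sites that had at least 10 reads in both libraries. Mcts2, a paternally expressed retrogene in an intron of H13, is the only gene of a known imprinting control region whose 250 bases held measured cytosines in an intermediate window. Akap5, which encodes a scaffold that anchors protein kinase A, and Bdh1, the mitochondrial enzyme that interconverts ketone bodies, are promoters in the longest intermediate stretches outside imprinted genes. For Bdh1 the sequence belongs to the downstream of its RefSeq starts. The 250 bases before its upstream start (chr16:31422047-31422296) overlapped no intermediate window. Their 1 measured cytosine was at 20% in control and 25% in fasted.

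Mcts2 (chr2:152686898-152687147, + strand): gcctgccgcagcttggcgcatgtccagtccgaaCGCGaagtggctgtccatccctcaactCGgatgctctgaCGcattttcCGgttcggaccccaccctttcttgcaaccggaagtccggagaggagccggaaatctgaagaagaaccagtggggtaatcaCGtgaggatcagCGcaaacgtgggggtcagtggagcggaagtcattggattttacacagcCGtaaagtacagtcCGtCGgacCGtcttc

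Akap5 (chr12:76324641-76324890, + strand): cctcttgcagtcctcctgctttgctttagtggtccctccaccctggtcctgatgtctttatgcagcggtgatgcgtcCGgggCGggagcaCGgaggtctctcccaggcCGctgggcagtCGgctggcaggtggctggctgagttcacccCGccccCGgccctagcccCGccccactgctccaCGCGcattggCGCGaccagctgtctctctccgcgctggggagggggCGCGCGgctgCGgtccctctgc

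Bdh1 (chr16:31428503-31428752, + strand): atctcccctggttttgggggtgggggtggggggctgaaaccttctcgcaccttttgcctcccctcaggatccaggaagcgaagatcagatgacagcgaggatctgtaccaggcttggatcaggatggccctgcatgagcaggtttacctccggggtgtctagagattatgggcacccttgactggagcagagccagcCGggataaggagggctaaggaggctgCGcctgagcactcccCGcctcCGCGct

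The capitals of Mcts2 mark 11 CpG sites, each measured on 1 strand; the first 5 lie in the window before, which averaged 16.7% in control and 38.0% in fasted and was not intermediate. Their levels ran from 16.7 to 37.5% in the control library, with a median of 35.3%, and from 33.3 to 66.7% in the fasted library, with a median of 66.7%. In Akap5, 28 cytosines at 16 CpG sites ran from 10.5 to 70% in control (median 46.2%) and from 8.33 to 81.2% in fasted (median 52.3%). In Bdh1, 9 cytosines at 5 CpG sites lay at 50 to 71.4% in control (median 57.1%) and at 35.3 to 65.7% in fasted (median 59.4%). The Mcts2 sequence also holds TGCCGC once, the core of the motif bound by ZFP57, a protein that protects methylated imprinting control regions. It lies near the start of the sequence, in the window before, which was not intermediate. Its CpG site lacked the reads to be measured. That motif, read on both strands, occurred in 16% of the 125 RefSeq promoters (300 bases each) that overlap an intermediate window, in 22.1% of the 12281 that overlap any window with enough cytosines, and in 11.6% of all 31396 promoters on the autosomes. Counting CG, the same 3 sets held a median of 11, 23 and 7. The site CCGG, cut by MspI, was in 75.2, 89.9 and 53.5% of them, and TCGA, cut by TaqαI, in 30.4, 31.8 and 22.1%.

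Depth was close in both libraries, at 49253627 cytosine readings in control and 51276705 in fasted (each read gives 1 reading per cytosine it covers), with a median of 8 and 9 reads per listed cytosine. Reads are PCR products without molecular identifiers, and so only counting error enters the intervals and p-values. As a check of the labelled tissue, of 4 hepatocyte genes with 3 or more measured promoter cytosines, Cebpa was at 0.309% in control and 1.01% in fasted, Foxa2 at 3.26 and 5.09%, Fgb at 7.98 and 14.3%, and Hnf4a at 21.3 and 18.5%, while 8 promoters of germline genes silent in liver had medians of 88.7% in control and 89.5% in fasted. Low promoters were not particular to hepatocyte genes, since 3 stellate cell genes had medians of 2% in control and 4.76% in fasted, against 5.62 and 9.69% for the 4 hepatocyte genes.

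Most windows with enough cytosines were near an end of the scale. In control, 62.4% of them averaged below 10%, 8.03% were at 10 to below 35%, 5.42% at 35 to 65%, 13.1% above 65 and below 90%, and 11.03% at 90% or more. In fasted, the corresponding shares were 62.8, 8.01, 5.00, 12.7 and 11.5%. Of 1696 windows in the intermediate range in control, 70.4% were also there in fasted, and of 1566 in fasted, 76.2% were also there in control. Another 502 windows were in range in control only and 372 in fasted only.

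**Figure D1:**
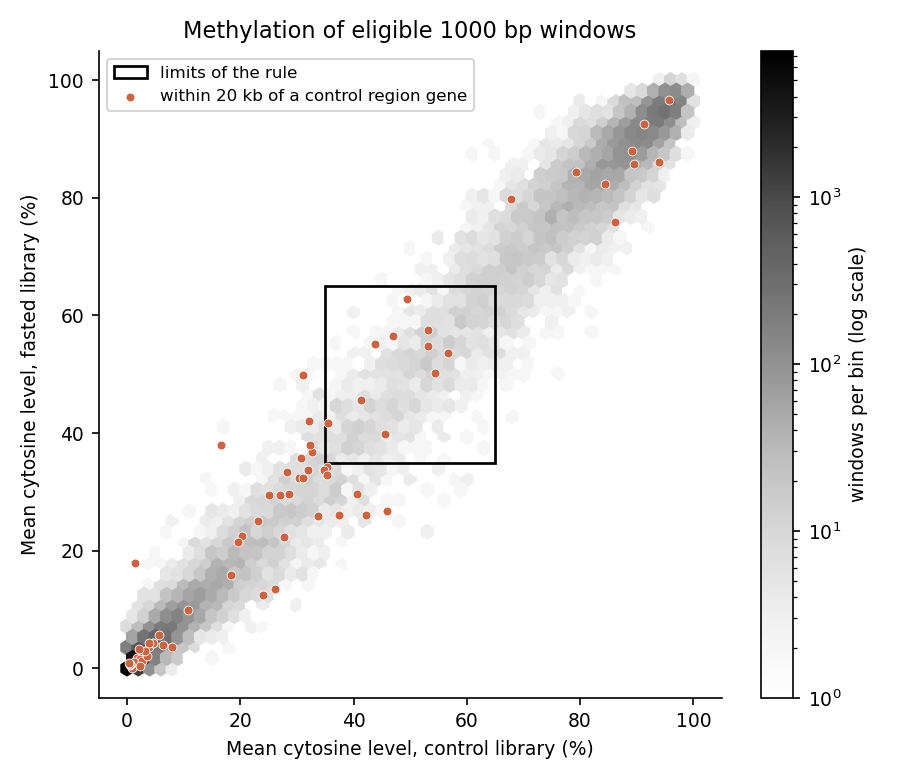
Mean cytosine level of each window with enough cytosines in the control library (x axis, %) and in the fasted library (y axis, %), with shade giving the number of windows per bin on a log scale. The box marks 35 to 65% in both libraries and holds the 1194 intermediate windows, and the red points are the 69 windows within 20 kb of a control region gene, of which 10 lie in the box and many just below and to the left of it.

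Within the box, window levels had a median of 51.7% in control (quartiles 44.6 and 57.6%) and 50.8% in fasted (43.7 and 57.0%). At the lower limit, the last windows inside were in Cfap99 (35% control, 41.9% fasted), in Gm39662 (48.0 and 35.1%) and near Gm29328 (44.3 and 35.1%). The first outside were in Aqp3, the glycerol channel (35.5 and 34.97%), near Twist2 (34.97 and 35.6%) and in Vwf (34.9 and 37.1%). At the upper limit, the windows in Gm35438 (65 and 60.6%), in Rfx8 (65 and 61.8%) and at Tmem267 and 3110070M22Rik (50.8 and 64.99%) were the last inside, and those near Gm36855 (61.1 and 65.01%), near Gm25880 (54.5 and 65.01%) and in Sorbs3 (63.3 and 65.04%) the first outside. All 19 autosomes held members, from 34 on chromosomes 16 and 19 to 109 on chromosome 5, which is 2.62% (chromosome 6) to 4.82% (chromosome 5) of each chromosome's windows with enough cytosines.

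Intermediate windows were of both kinds, uniform stretches and mixtures of high and low cytosines, and the largest group lay between. A window was called uniform where at least 80% of its cytosines lay at 20 to 80% in both libraries, mixed where at least 50% lay below 20% or above 80% in both libraries, and in-between otherwise. By this division 431 windows were uniform (36.1%, exact 95% interval 33.4 to 38.9%), 632 were in-between (52.9%, 50.1 to 55.8%) and 131 were mixed (10.97%, 9.25 to 12.9%). The intervals are Clopper-Pearson intervals and treat windows as independent. The order of the classes turns with the definition: where an intermediate cytosine meant 30 to 70%, 5.444% of windows were uniform and 34.09% mixed.

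Seen cytosine by cytosine, the intermediate windows held 18971 cytosines with a median of 16 reads in control and 18 in fasted. Of them, 73.9% in control and 74.0% in fasted were themselves at 20 to 80%, against 7.11 and 6.72% of the 984832 cytosines in all windows with enough cytosines. If each cytosine had had exactly its window's mean level and differed only by the chance of drawing reads, 96.5 and 96.96% would have fallen there. The rest were split evenly, with 12.7% below 20% and 13.4% above 80% in control, and 13.3 and 12.7% in fasted.

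In uniform windows, 90.7% of 7272 cytosines were at 20 to 80% in each library. In mixed windows the 1850 cytosines fell into 3 nearly equal parts in control, with 33.7% below 20%, 33.5% at 20 to 80% and 32.8% above 80%, and in fasted the shares were 35.1, 32.2 and 32.7%. Complete absence of methylated reads was seen at 12.3% of the mixed cytosines in control and 12.8% in fasted, and complete methylation at 10.8 and 9.35%. The same extremes were rare in uniform windows, at 0.509 and 0.495% for absence and 0.523 and 0.454% for completeness. The classes use these very values, so the contrast describes how the classes look and is no test of them.

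**Figure D2:**
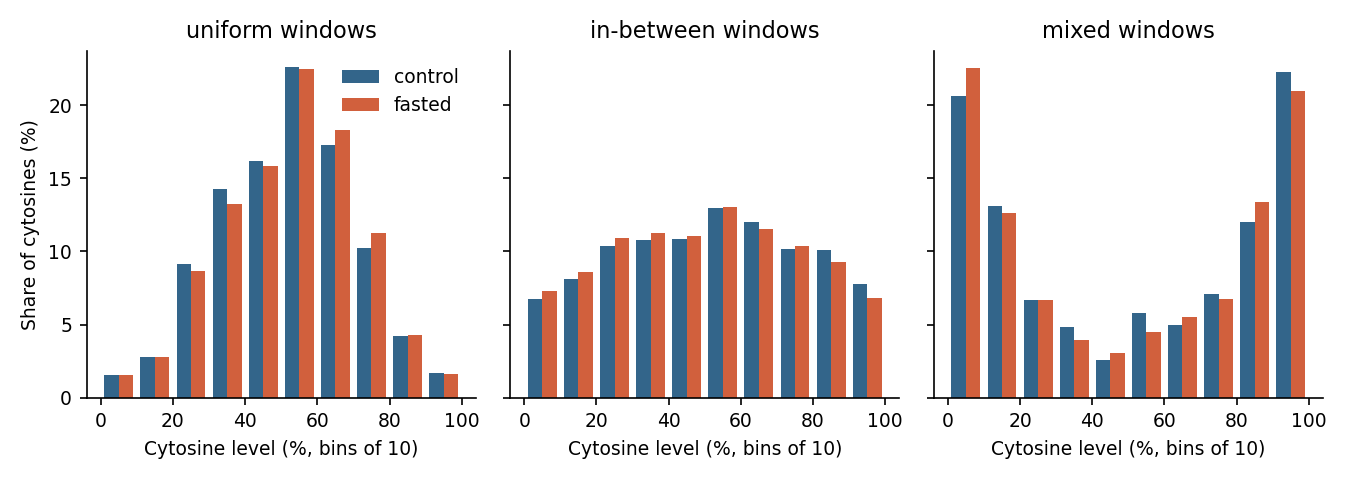
Share of cytosines (y axis, %) by methylation level in bins of 10 points (x axis, %) in uniform, in-between and mixed windows, with blue bars for control and red bars for fasted. Uniform windows have 1 peak, at 50 to 60% (22.6% of cytosines in control and 22.4% in fasted), in-between windows are nearly flat, and mixed windows have 1 peak at each end, with 20.6 and 22.5% of cytosines below 10% and 22.3 and 21.0% at 90% or above.

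The spread inside a window was usually more than binomial sampling of separate reads gives, in uniform windows too. The standard deviation of cytosine levels within a window had a median of 22.99 points in control and 23.1 in fasted over all members. It was 17.5 and 17.6 points in uniform, 25.6 and 25.8 in in-between, and 36.6 and 37.1 in mixed windows. Divided by the variance that binomial sampling would give with separate reads at each cytosine, the observed variance had a median ratio of 3.58 in control and 3.84 in fasted. A ratio of 1 means no spread beyond such sampling. Cytosines covered by the same reads vary together, which can lower the ratio below 1. Medians were 2.05 and 2.16 in uniform, 4.28 and 4.72 in in-between, and 8.70 and 10.2 in mixed windows. The ratio was below 1.5 in both libraries in 68 windows, 67 of them uniform, and above 3 in both in 599, among them every mixed window.

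Depth did not separate the classes: the median over windows of the median reads per cytosine was 17, 16.5 and 16 in control for uniform, in-between and mixed windows, and 18, 18 and 17 in fasted. All windows with enough cytosines had 20 in each library. In each library 3 intermediate windows reached 50 reads, with a highest value of 75 in control and 83 in fasted. The members held fewer measured cytosines than windows at large (a median of 13 against 21). From first to last cytosine they spanned a median of 248 bp in uniform, 379.5 bp in in-between and 542 bp in mixed windows, against 386 bp in all windows with enough cytosines, so a mixed window usually covered more ground.

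Within windows, the high and low cytosines of the control library were largely the high and low ones of the fasted library. Across all 18971 cytosines, the deviation from the window mean in control correlated with that in fasted with a Pearson r of 0.780, and r was 0.573 in uniform, 0.789 in in-between and 0.939 in mixed windows. This is across cytosines, which share windows, reads and sequence, and is given as a description. In mixed windows, the 624 cytosines below 20% in control had a median of 6.25% in fasted (quartiles 0 and 15.4%), and the 606 above 80% in control had a median of 91.2% (83.3 and 100%). In uniform windows the 318 cytosines below 20% in control were at a median of 25% in fasted, and the 356 above 80% were at 72.7%. The classes were defined from both libraries, so the contrasts between classes here, r included, are partly fixed by definition and test nothing. Counting windows, 557 had at least 80% of their cytosines at 20 to 80% in control, and 77.4% of these did so again in fasted. Of 185 with at least 50% extreme cytosines in control, 70.8% were again extreme in fasted.

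High and low cytosines in mixed windows mostly lay in separate parts of the window. For each window, the single position that best divides its cytosines into a left and a right part was found in control. At least 3 cytosines were kept on each side. The step was then read in fasted, whose levels did not place it but helped to define the classes. Cytosines kept much of their level between libraries, so a step placed in control carries over to fasted whatever their order. A best division also accounts for some variance in any order, and no comparison with shuffled positions was made. In mixed windows this step accounted for a median of 82.3% of the variance in control and 81.8% in fasted, and it ran in the same direction in all 131. In uniform windows it accounted for 26.8% in control and 18.2% in fasted, and in in-between windows for 46.7 and 41.5%. A step that accounted for at least 70% in both libraries was found in 159 windows, of which 77 were mixed, 78 in-between and 4 uniform. Their lower sides had a median of 17.0% in control and 16.9% in fasted, their higher sides 80.5 and 80.6%, and the gap without measured cytosines at the step had a median of 125 bp.

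Differences between CpG sites also grew with distance. In mixed windows, CpG sites 2 to 10 bp apart differed by a median of 7.5 points in control, those 101 to 300 bp apart by 39.8 points and those 301 to 1000 bp apart by 71.3 points. The same distances gave 10.3, 15.8 and 18.8 points in uniform windows, and 13.5, 26.2 and 37.7 points in in-between windows. Close pairs often lie on the same reads, which lowers their difference.

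Both strands of a CpG site, which come from separate reads, gave similar levels. At 6103 CpG sites of intermediate windows with both strands measured, the strands differed by a median of 11.1 points in control and 10.3 in fasted. Only 0.721 and 0.557% of sites differed by over 50 points, and 0.131% did so in the same direction in both libraries. Among CpG sites at 35 to 65%, that last share was 0.363% of 1926 sites inside intermediate windows and 1.91% of 2718 sites outside them. Sequence differences between CD-1 mice and the reference were not analysed here.

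**Figure D3:**
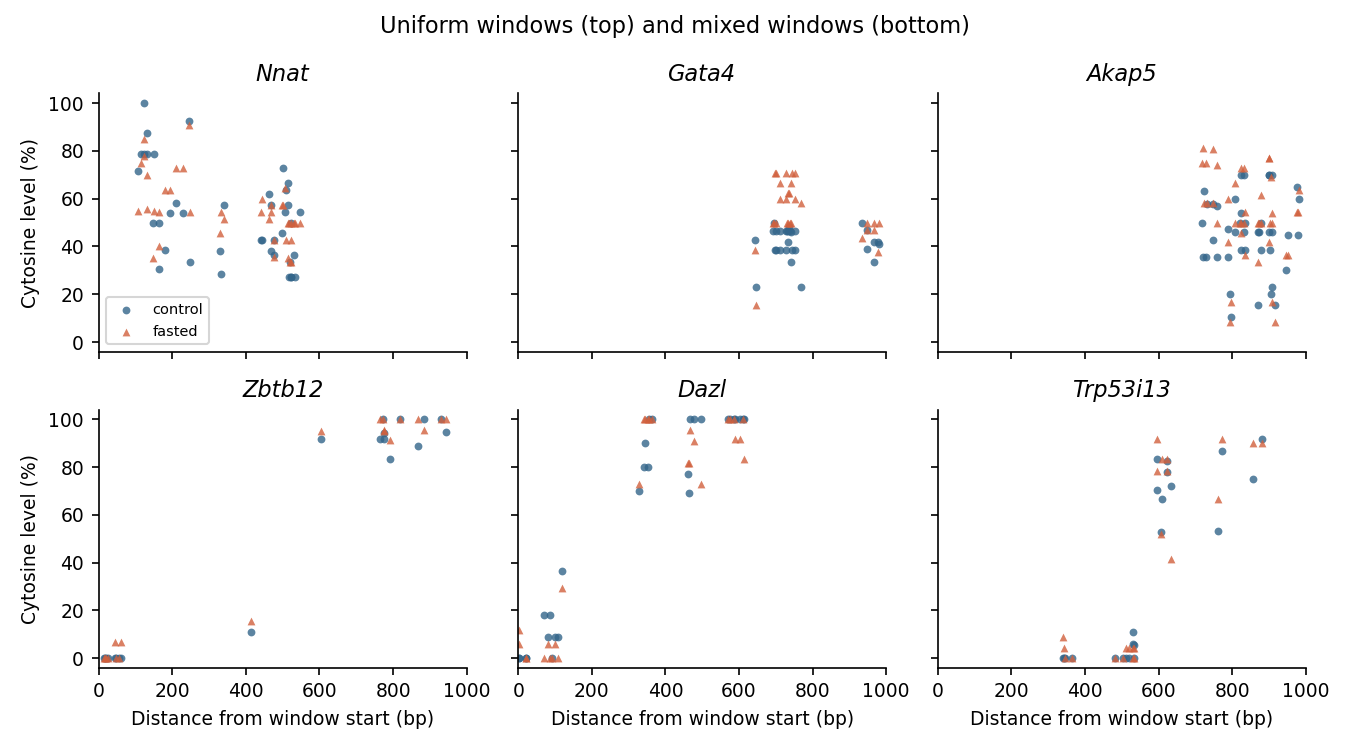
Level of each cytosine (y axis, %) against its distance from the window start (x axis, bp) in 3 uniform windows (Nnat, Gata4 and Akap5) and 3 mixed windows (Zbtb12, Dazl and Trp53i13), with circles for control and triangles for fasted. In the uniform windows the points form a band around the middle, while each mixed window has a low part and a high part at the same places in both libraries.

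The 5 uniform windows of smallest spread, among those with 20 or more cytosines and away from imprinted genes, show the first kind. In Gata4, a zinc-finger transcription factor of heart and liver development, 29 cytosines (chr14:63240001-63241000) ran from 22.9 to 50% in control with a mean of 41.6%, and from 15.4 to 70.8% in fasted with a mean of 54.5%. All of them lay at 20 to 80% in control and 28 in fasted. Shank2, a scaffold of excitatory synapses, had 36 cytosines (chr7:144175001-144176000) at 29.4 to 68.8% in control and 30.4 to 87.0% in fasted, with means of 50.2 and 60.5%. A window in Fam83h averaged 54.4 and 58.3% over 25 cytosines, and 1 that lay 12453 bp from Terf2, a telomere-binding protein gene, averaged 60.3 and 64.0% over 20. Dcdc2c, of the doublecortin family, had 26 cytosines at means of 48.6 and 48.0%. Their variance ratios ran from 0.376 (Gata4) to 1.39 (Dcdc2c) in control and from 0.641 (Fam83h) to 1.66 (Shank2) in fasted.

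At the other end, mixed windows of the largest spread had a low and a high part, and 4 of them are given here, again with 20 or more cytosines and away from imprinted genes. In Zbtb12, a zinc-finger gene, 9 cytosines on the left of the window (chr17:34895001-34896000) averaged 1.23% in control and 3.24% in fasted, and 11 on the right averaged 94.2 and 97.6%, with 189 bp between them. Dazl encodes an RNA-binding protein of germ cells. The window at its annotated start (chr17:50293001-50294000) had 11 cytosines at 9.09 and 5.35% and 18 at 92.6 and 92.3%, with 208 bp between. The window 237 bp from Ddx17, an RNA helicase gene, had a low part at 5.08 and 3.11% and a high part at 76.3 and 76.6%, and that at an end of Trp53i13 had 1.88 and 2.54% beside 73.9 and 77.0%. Only Zbtb12 had no cytosine at 20 to 80%. At Dazl 6 of 29 cytosines lay there in control and 3 in fasted, at Ddx17 6 and 8 of 21, and at Trp53i13 7 and 5 of 23. None of the 4 windows moved by more than 3 points in its mean between libraries, and in each the low side was the same in both libraries.

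Intermediate windows lay farther from gene starts than windows at large. An annotated gene end, which is either end of a gene because the gene table gives no strand, fell in 12.7% of them (152 windows), against 35.02% of all windows with enough cytosines. Another 59.1% (706) lay inside a gene without an end, against 49.1%, and 28.1% (336) lay outside genes, against 15.9%. Exons and introns were not analysed here. On the autosomes covered by the RefSeq promoter table, which has no chromosome 18, 8.89% of 1148 members overlapped a promoter, against 35.7% of 30321 windows. The distance from the window's centre to the nearest RefSeq start had a median of 13250 bp in members and 1731 bp in all windows.

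Of the 3 classes, mixed windows had the shortest median distance to a start, 8739 bp, against 15940 bp in uniform and 12608 bp in in-between windows, and 28.3, 17.1 and 21.1% of these lay within 2000 bp of a start. Around the 159 step windows, the neighbour on the low side had enough cytosines in 45 cases and was below 35% in 43 of them. On the high side, 11 neighbours had enough cytosines and 6 were above 65%. Most windows with enough cytosines were low in any case, with 62.4% below 10% and 8.03% at 10 to below 35% in control. Another 13.1% were above 65 and below 90%, and 11.03% were at 90% or more. A RefSeq start within 5000 bp of the step was present for 62 of the 156 step windows on the table's autosomes, and for 43 of these 62 it lay on the low side.

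Stretches longer than 1 window were few. The members formed 1168 separate runs when windows with starts at most 2000 bp apart were joined, of which 1142 were single windows, 26 were pairs and none was longer. Enough cytosines were present in 278 directly adjacent windows, of which 44 were themselves members (15.8%), 178 were below 35% in control (64.0%) and 43 were above 65% (15.5%). Of all windows with enough cytosines, 3.81% were members. In control, 62.4% of all these windows were below 10% and 8.03% at 10 to below 35%. Another 13.1% were above 65 and below 90%, and 11.03% were at 90% or more. Next to uniform windows, 28 of 75 adjacent windows were members (37.3%). Next to mixed windows none of 47 was, 38 were below 35% (80.9%) and 8 were above 65%. Both neighbours could be read for 17 members, and in 9 of these 1 neighbour was below 35% and the other above 65%: this held for all 3 such mixed windows and for none of the 5 uniform ones.

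The pairs with the most cytosines were in or beside genes outside the imprinted lists. Agap3, which encodes an Arf GTPase-activating protein, had 141 cytosines in a pair (chr5:24474001-24476000) with means of 49.5 and 55.8% in control and 42.3 and 50.1% in fasted, both uniform. The pair at Akap5 (chr12:76324001-76326000) had 69 cytosines with means of 45.5 and 55.7% in control and 52.9 and 53.4% in fasted, and the pair at Bdh1 and Gm15743 (chr16:31428001-31430000) had 72 with 43.3 and 45.0% in control and 49.1 and 52.8% in fasted. All 4 of these windows were uniform, and they hold the Akap5 and Bdh1 promoters printed above. Prob1 (95 cytosines), Myorg (73) and Fam83h (60) had pairs of uniform windows too. In Zmiz1 (83), Espn (63) and Samd14 (63), 1 of the pair was uniform, and Lingo3 (65) had no uniform window.

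Counted by gene, the largest collection was the clustered protocadherins on chromosome 18, genes for cell adhesion proteins of which single neurons each express a few. Within chr18:36930285-37841873, 19 of 59 windows with enough cytosines were intermediate, which is 41.3% of all members on that chromosome. Of them, 8 were uniform, 10 in-between and 1 mixed, with a median of 56.3% in control (35.5 to 64.6%) and 53.7% in fasted (35.8 to 63.2%). The genes there overlap, so 1 window counts for several. Elsewhere Prdm16, a transcription factor of brown fat, had 7 of its 16 windows in range and Grik4, a kainate receptor subunit, 4 of 8. These genes were singled out after their counts were seen.

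Known imprinted loci made up a small part of the intermediate windows. A list of 26 genes that carry or flank a known imprinting control region and 51 other imprinted genes was compared by position, with 25 and 50 matched in the RefSeq gene table. Within 20 kb of any of them lay 154 windows with enough cytosines, of which 12 were intermediate (7.79%), against 1182 of 31160 elsewhere (3.79%). Within 20 kb of a control region gene it was 10 of 69 (14.5%). These 10 comprised 7 uniform, 2 in-between and 1 mixed window, and the other 2 near imprinted genes were in-between. The variance ratio of the 12 had a median of 1.805 in control and 1.96 in fasted, against 3.59 and 3.86 in the other intermediate windows, and the standard deviation within a window was 17.2 and 15.7 points against 23.001 and 23.1. How far reads shared between cytosines lower these values in each group was not tested. No enrichment was tested, and the list was drawn up with earlier results of these data known.

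**Figure D4:**
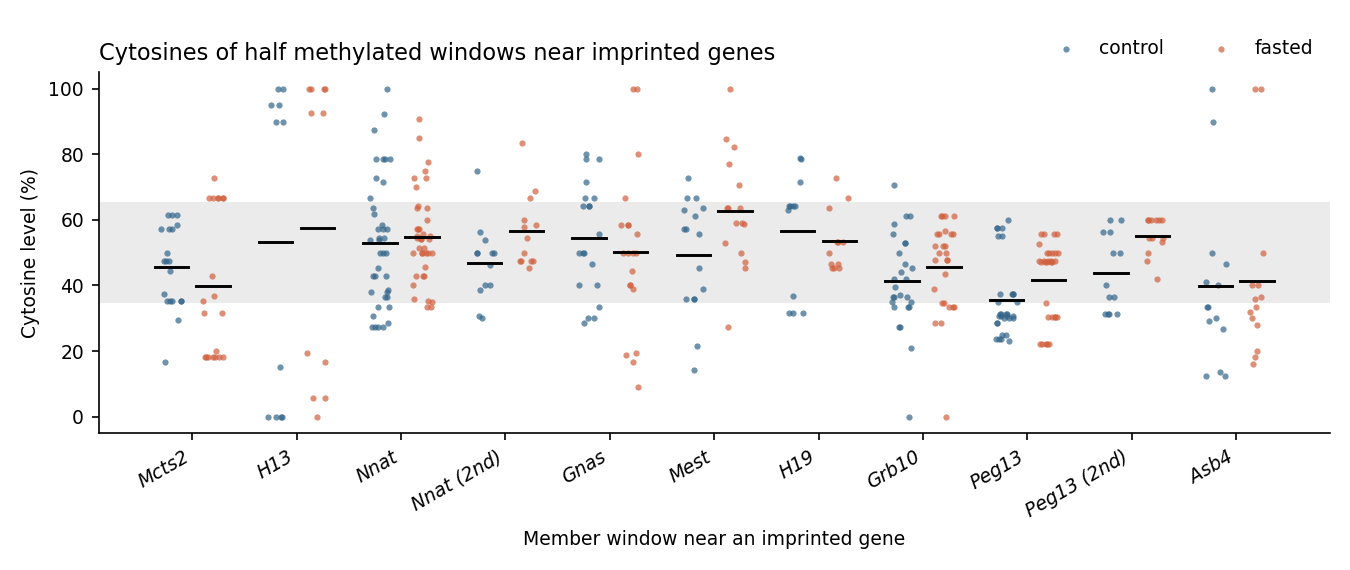
Level of every cytosine (y axis, %) in 11 of the 12 intermediate windows near imprinted genes, with blue points for control, red points for fasted, black bars for window means and a grey band for 35 to 65%; the window near Id1 is not drawn. Most windows form a single cloud around the band, and the H13 window has a group near 100% and a group near 0% in both libraries.

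Nnat, a paternally expressed gene within an intron of Blcap that encodes a small membrane protein, had 2 adjacent uniform windows. The first (chr2:157560001-157561000) held 40 cytosines from 27.3 to 100% in control and from 33.3 to 90.9% in fasted, with means of 53.1 and 54.9%. The second (chr2:157561001-157562000) held 13 cytosines at 30 to 75% and 45.5 to 83.3%, with means of 47.0 and 56.5%. No cytosine in either window was below 20% in either library.

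Peg13, a noncoding RNA gene inside Trappc9, also had a pair of uniform windows. Its 31 cytosines in the first (chr15:72809001-72810000) lay at 23.1 to 60% in control and 22.2 to 55.6% in fasted, with means of 35.6 and 41.8%, and the 13 in the second (chr15:72810001-72811000) at 31.2 to 60% and 42.1 to 60%, with means of 43.9 and 55.1%. Every one of these 44 cytosines was at 20 to 80% in both libraries, and the variance ratios, 1.09 and 1.07 in the first window and 0.694 and 0.234 in the second, were near or below 1.

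Grb10, an adaptor that dampens insulin receptor signalling, had a uniform window inside the gene (chr11:12025001-12026000) with 27 cytosines at 0 to 70.6% in control and 0 to 61.1% in fasted and means of 41.3 and 45.6%. H19 is a maternally expressed noncoding RNA whose control region lies upstream of it. The uniform window 3855 bp from H19 (chr7:142582001-142583000) had 12 cytosines at 31.6 to 78.9% and 45.5 to 72.7%, with means of 56.7 and 53.6%. Mest, a paternally expressed gene of the hydrolase fold, had a uniform window 506 bp from the gene (chr6:30732001-30733000), where 16 cytosines averaged 49.4% in control and 62.8% in fasted. In these 3 windows together 1 cytosine of Grb10 and 1 of Mest lay below 20% in control.

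At Gnas, which encodes the stimulatory G protein alpha subunit and has several imprinted starts, an in-between window (chr2:174298001-174299000) averaged 54.4% in control and 50.2% in fasted over 20 cytosines. All 20 were at 20 to 80% in control, and 14 were in fasted, where 4 were below 20% and 2 above 80%. Asb4, an imprinted gene for a ubiquitin ligase adaptor, had an in-between window at its annotated start (chr6:5383001-5384000) with 14 cytosines at means of 39.9 and 41.4%. In it 4 cytosines averaged 67.5 and 67.4% and the other 10 averaged 28.9 and 31.0%. A window near Id1 (chr2:152725001-152726000) was counted because H13 lies within 20 kb, at means of 56.1 and 55.6%; it falls outside the rule for named genes and is named here to complete the 12.

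Both remaining windows belong to the H13 locus, where H13 encodes signal peptide peptidase and Mcts2 sits inside it. The H13 window (chr2:152696001-152697000) was mixed: 6 cytosines averaged 95% in control and 97.5% in fasted, and the other 5, after a gap of 703 bp, averaged 3.03 and 9.46%. The Mcts2 window (chr2:152687001-152688000) was in-between and its parts moved in opposite directions. On its left, 7 cytosines averaged 34.8% in control and 67.5% in fasted, and on its right 13 averaged 51.4 and 25.03%, while the whole window went from 45.5 to 39.9%. Many neighbouring cytosines there had the same value within a library, as cytosines covered by the same reads do, with window medians of 16.5 reads in control and 12 in fasted. The last 6 capital sites of the Mcts2 sequence above belong to this left part, whose remaining cytosine lies just past the printed end.

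More control region genes were seen as uniform stretches just below the limit of 35%. Of the 69 windows near control region genes, 59 were not intermediate, of which 20 were below 10% in both libraries and 9 above 65% in both. Dropping the limits on the mean and asking only that at least 80% of cytosines lie at 20 to 80% in both libraries left 19 of the 69 windows (27.5%), against 609 of all 31314 (1.94%), an alternative chosen after the data were seen. Of the 19, 7 were intermediate windows, 12 were below 35% in at least 1 library and none was above 65%. Their levels had a median of 35.4% in control (27.1 to 56.7%) and 35.8% in fasted (22.4 to 62.8%), whereas the 590 such windows away from imprinted genes had medians of 52.8% in each library.

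Of the 25 matched control region genes, 23 had a window with enough cytosines, 14 had a window with uniform cytosines at any level and 7 had an intermediate window. Genes that lie together share windows, as Igf2r does with Airn and Peg10 with Sgce, so these count genes and not separate loci. Snrpn and Nap1l5 had no window with enough cytosines. Plagl1, a zinc-finger gene, had 45 cytosines at means of 31.1% in control and 32.4% in fasted (chr10:13090001-13091000), all of them at 20 to 80% in both libraries. Gnas had 98 cytosines at 35.4 and 34.2% (chr2:174299001-174300000), which missed the rule in fasted only. Impact had 55 at 32.3 and 38.0%, Airn 14 at 28.7 and 29.7%, Peg3 10 at 30.8 and 35.8%, and Kcnq1ot1 10 at 27.1 and 29.5%. Not all windows near these genes were intermediate: Gnas also had 109 cytosines at 1.27 and 1.09% (chr2:174330001-174331000), and windows at Igf2, Dlk1 and Rasgrf1 that averaged below 10% in both libraries. The genes of this paragraph were chosen after their values were seen.

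**Figure D5:**
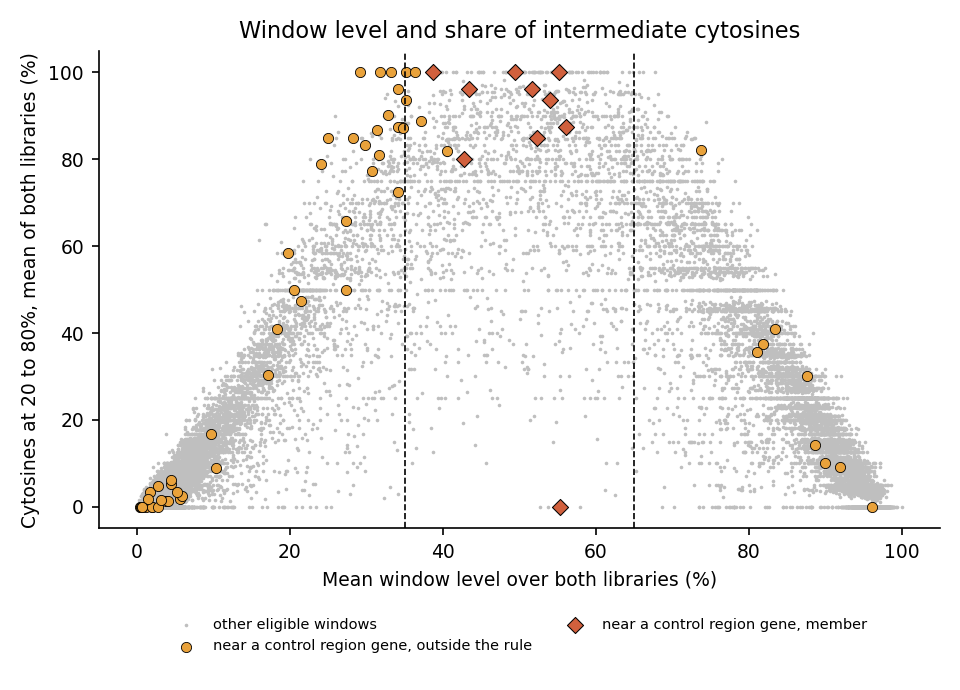
Share of a window's cytosines at 20 to 80% (y axis, %, mean of both libraries) against the window's level (x axis, %, mean of both libraries) for all 31314 windows (grey), with the 69 windows near control region genes as orange circles (outside the rule) and red diamonds (intermediate). Dashed lines mark 35 and 65%: several orange circles with shares above 80% lie just left of the lower line, and 1 red diamond, the H13 window, lies at 0%.

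Near genes that mark liver cell types, the share of intermediate windows is to be read beside the 3.81% of all windows. None of the 25 windows within 20 kb of 16 hepatocyte genes and none of the 16 near 8 stellate cell genes was intermediate, which with counting error alone allows up to 3 windows in each. Of 32 near 16 Kupffer and other immune genes there were 2, 1 in Cd37, a tetraspanin of B cells (52.5% control, 48.5% fasted), and 1 nearby in Slc6a16 (43.7 and 41.6%). Of 24 near 11 endothelial genes there were 2, in Kdr, the main VEGF receptor (39.4 and 50.1%), and Egfl7 (48.5 and 43.1%), both uniform. Of 27 near 8 cholangiocyte genes there was 1, a uniform window at Sox9, a transcription factor of bile duct cells (44.3 and 57.1%), and of 33 near 16 germline genes there was 1, the mixed window of Dazl described above. What part a mixture of cell types has in the intermediate levels was not tested.

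Between libraries, intermediate windows moved by a median of 4.18 points in either direction, with a median difference of fasted minus control of -0.540 points, and 692 of them (58.0%) moved by less than 5 points. The rule itself limits the move to 30 points and removes windows that leave the range. A window was called different where Fisher's exact test (two-sided, on its summed reads) gave a Benjamini-Hochberg p under 0.05, adjusted over all 31314 windows, and its mean moved by 10 points or more. By this rule 88 members (7.37%) differed between the libraries, 35 higher and 53 lower in fasted. Over all windows, 2.51% were called (785), 1.21% higher and 1.3% lower. The rule used the same contrast, so nothing is read from the comparison with that background. Without the demand that both levels be in range, 257 of 1639 windows whose mean over both libraries was 35 to 65% were called (15.7%).

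By class, 39 of 431 uniform windows were called (22 higher, 17 lower), 46 of 632 in-between windows (12 higher, 34 lower) and 3 of 131 mixed windows (1 higher, 2 lower). Largest among the increases was a window in Nrn1, which encodes a neurite growth protein. It went from 36.2% in control to 63.8% in fasted over 15 cytosines (Fisher's exact test, adjusted p = 1.35e-07). Windows in Gm7094 (38.7 to 61.6%, 11 cytosines) and in Anp32a (41.9 to 64.3%, 10 cytosines) came next. Largest among the decreases was a window in 4931428F04Rik (63.7 to 37.5%, 14 cytosines, adjusted p = 0.000198 by the same exact test). Then came windows 3301 bp from Vgf, a neuropeptide precursor gene (64.0 to 38.6%, 10 cytosines), and in Hsd17b1, an enzyme of oestradiol synthesis (62.4 to 38.2%, 10 cytosines). Of the uniform windows named above, Gata4 (adjusted p = 2.35e-06) and Shank2 (adjusted p = 0.00889) were called higher in fasted by the same exact test. None of the 12 windows near imprinted genes was called. H13 (adjusted p = 0.0357, 4.30 points) and Gnas (adjusted p = 0.0497, -4.22 points) missed by the size of the difference, and Mest (adjusted p = 0.0568, 13.4 points) by the exact test.

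These p-values treat every read at every cytosine as separate, although 1 read covers several cytosines. When each window's reads were scaled down by its count of cytosines, 0 members were called, and 0 of all windows.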

How the data were processed

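DNA methylation was measured in liver of control and fasted mice, 1 library each, grouped by their titles. A deposited row is 1 CpG cytosine on 1 strand; its text field gives methylated and total read counts with the percent methylated, and its deposited score is 1000 times the methylated fraction. All values here come from the deposited read counts, without normalization. Bismark 0.14.3, bcl2fastq 1.8.4 and mm10 are named in the submitters' processing notes. How reads were trimmed, aligned and deduplicated and whether overlapping mates count once is not given in the sources used here.

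Start positions were converted to count from 1 and strands were kept apart. Window levels, classes, steps and Fisher's exact tests were computed with Python 3.11.15, pandas 2.3.3, numpy 2.4.6 and scipy 1.17.1 and figures with matplotlib 3.10.9. The classes and tests were checked on simulated windows in which each cytosine drew its own reads. That check cannot judge the tests where cytosines share reads, as they do in these data. Genes, promoters and sequences came from RefSeq tables of GRCm38.p6. Of 152 listed symbols 150 matched. All 213146 measured promoter cytosines lay at a CG of the RefSeq sequence.

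Named genes follow a rule: members within 20 kb of a control region gene and the member with most cytosines for other imprinted genes. Outside the imprinted lists, the rule took the 10 runs with most windows (ties ordered by cytosines). Among windows there with at least 20 cytosines, it took the 5 uniform of smallest and 5 mixed of largest spread. Without that minimum, it took the 3 largest changes each way, 3 windows on each side of each limit, and members at ends of marker genes. Of the 5 mixed windows 1 is not reported here. Members, lists and thresholds were chosen with earlier results of these data known. Alternatives were other minimums of reads and cytosines, other ranges, shifted windows, merged strands with at least 5 CpG sites, read weighting, a coverage cap, other distances to genes, other definitions of an intermediate cytosine and other tests of reads.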

Additional observations from a re-analysis of the deposited data

How the results depend on the processing

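The number of intermediate windows follows the thresholds: 1194 became 2731 with a minimum of 5 reads, 105 with 20 reads, 4453 with at least 5 cytosines, 229 with at least 20 cytosines, 681 with a range of 40 to 60%, 1861 with 30 to 70% and 3913 with strands merged and at least 5 CpG sites per window, which changes 2 choices at once and is called merged strands below. In that order of settings, the share of uniform windows (36.1%) became 27.65, 49.52, 41.07, 42.79, 41.85, 29.88 and 40.51%. Uniform windows were 5.444% where an intermediate cytosine meant 30 to 70%, and 72.86% where it meant 10 to 90%. Mixed windows (10.97%) became 14.02, 5.714, 13.63, 6.987 and 14.57% under 5 reads, 20 reads, 5 cytosines, 20 cytosines and merged strands, and 34.09 and 2.094% under those 2 definitions, so how many windows are called uniform or mixed depends on that definition. Windows near control region genes (10) became 21, 2, 21, 5, 21 and 18 with 5 reads, 20 reads, 5 cytosines, 20 cytosines, 30 to 70% and merged strands, and those near imprinted genes (12) became 25, 3, 30, 5, 26 and 26. Uniform windows near control region genes at any mean level were 19 against 7 in range. The share that differed between libraries (7.37%) became 5.016, 12.38, 3.234, 13.1, 3.377, 10.16 and 4.651% under the 7 settings of the first sentence, where 2.67, 0.709, 2.74, 0.864, 2.51, 2.51 and 2.74% of all windows were called. It became 9.291% with read weighting (2.82% of all) and 3.518% with 15 points (1.24%). With every count divided by 2, an alternative added after seeing the data, it became 1.424% (0.741% of all). With reads scaled down by each window's count of cytosines it was 0%, and that test could hardly call a member. The cause of these moves was not tested, beyond fewer or more windows being eligible. Shifted windows, a coverage cap and leaving out the protocadherins (1213, 1187 and 1175 windows) moved the number by less than 1.5 times. No paired analysis was possible because there was 1 library per group and the labels give no shared replicate numbers. With 10 reads a single cytosine's level is coarse, so a window's class rests on the pattern over its cytosines.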

Other observations

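Chromosome X was outside the rule. Of its 365 windows with enough cytosines (16195 cytosines), 4 were at 35 to 65% in both libraries (1.10%), of which 1 was uniform, 2 were in-between and 1 was mixed. In control 80% of them were below 10%, with a median window level of 1.04% in control and 1.03% in fasted.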
